A study of Homo sapiens with 9 samples.

Results

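The human mitochondrial genome is a small circle of DNA that most cells keep in many copies, separate from the nucleus. Its genes were taken as every row of the deposited gene table whose Ensembl identifier maps to a symbol starting with MT-, which gave 37 of 61093 rows. They were 2 ribosomal RNA (rRNA) genes, 13 protein genes and 22 transfer RNA (tRNA) genes. The 13 protein genes encode 7 subunits of respiratory complex I, 1 of complex III, 3 of complex IV and 2 of the ATP synthase, complex V.

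RNA-seq was run on 9 libraries labelled as HepG2, a human liver cancer cell line, with 3 libraries in each of 3 groups. The 2-APB group received 2-aminoethoxydiphenyl borate, which the series names as an agonist of the cation channel TRPV2. The SKF-96365 group received the compound it names as the inhibitor, and the control group has no treatment entered. No group carries a genetic change in the labels, and dose, exposure time, vehicle and batch are not given there. The 2-APB libraries are titled ABP and their value columns carry the name TRPV2, so they were placed by their treatment label. The labels do not say that libraries of a group came from separate cultures, so every p-value measures only the spread between these samples, which may be technical.

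Mitochondrial DNA is transcribed from both strands into long precursors. The heavy-strand transcript carries both rRNAs, most of the mRNAs and most of the tRNAs, and the light-strand transcript carries MT-ND6 and the remaining tRNAs. Many tRNAs sit between the longer genes, and cutting them out releases the rRNAs and mRNAs, whose levels then also depend on how long each RNA lasts. The proteins are made on ribosomes inside the mitochondrion and join nuclear-encoded subunits in the respiratory chain, which is why nuclear genes for those subunits and for mitochondrial gene expression were read beside them.

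The mitochondrial genes lie so close together that some share bases. The 2 shared stretches below are shown because a read that falls in one cannot be given to a single gene, which bears on MT-ATP8 and MT-ND4L. Both are from the GENCODE 29 reference (GRCh38), plus strand, with the overlap in capitals. The first is chrM:8497-8602, where the end of MT-ATP8 and the start of MT-ATP6 share 46 bases. The second is chrM:10730-10796, where MT-ND4L and MT-ND4 share 7 bases.
MT-ATP8 and MT-ATP6: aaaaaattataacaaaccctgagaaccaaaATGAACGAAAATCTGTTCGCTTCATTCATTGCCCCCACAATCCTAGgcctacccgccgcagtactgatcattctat
MT-ND4L and MT-ND4: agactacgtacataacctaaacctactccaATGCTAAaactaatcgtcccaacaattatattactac

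Copies of mitochondrial DNA in the nuclear genome are the other source of shared reads. The table listed 417 such copies, 124 of them above 0 in any library and 7 with a mean of at least 10. Summed, they came to 0.616%, 0.650% and 0.638% of the mitochondrial signal in the 2-APB libraries, 0.642%, 0.556% and 0.561% in the SKF-96365 libraries, and 0.764%, 0.741% and 0.561% in the control libraries. MTND2P28, on chromosome 1, matched 98.37% of the 1042 bases of MT-ND2, with a longest identical run of 266 bases, and was listed at 4.53% to 5.53% of the MT-ND2 value. MTATP6P1, also on chromosome 1, matched 98.53% of the 681 bases of MT-ATP6 and was listed at 6.81% to 9.62% of it. MTCO1P12 was listed at 0.163% to 0.256% of MT-CO1, and MTCO1P28 at 0.00129% to 0.00471%. MTND4P12 stood at 0.0775% to 0.140% of MT-ND4, MTND5P11 at 0.0202% to 0.0614% of MT-ND5, and MTRNR2L12 at 0.00597% to 0.0151% of MT-RNR2. How reads that match both a gene and its copy were counted is not given. These shares therefore do not bound the uncertainty of the mitochondrial gene values. The windows below show how alike the copies with the largest shares are, with the bases that differ in capitals. They run from base 247 to 306 of the MT-ND2 transcript and from base 109 to 168 of the MT-ATP6 transcript.
MT-ND2: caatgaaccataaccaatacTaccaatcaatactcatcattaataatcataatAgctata
MTND2P28: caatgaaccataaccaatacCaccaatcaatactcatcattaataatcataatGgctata
MT-ATP6: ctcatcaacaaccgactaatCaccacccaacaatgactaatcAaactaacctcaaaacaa
MTATP6P1: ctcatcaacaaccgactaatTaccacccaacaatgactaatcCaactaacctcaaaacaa

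The libraries held 14786059 to 19026545 reads. Control 3, SKF-96365 2 and SKF-96365 3 stood together and away from the rest of their own groups. Over the genes tested, the log2 values of control 3 correlated at 0.988 with SKF-96365 2 and 0.986 with SKF-96365 3, but at 0.961 with control 1 and 0.957 with control 2. SKF-96365 1 correlated at 0.988 with 2-APB 3 and at 0.972 and 0.971 with SKF-96365 2 and 3. In turn, 2-APB 3 correlated at 0.986 with control 1, but at 0.980 and 0.981 with 2-APB 1 and 2. No pair of libraries matched within counting noise, the closest being 2-APB 1 and 2 with a chi-square of 2.15 per degree of freedom over genes. No label gives a reason for the grouping, and the counts of called genes, with the genes and lists that moved most, are also given without control 3 and SKF-96365 1. Of 16 genes for proteins that hepatocytes secrete, 1, SERPINA1, had a mean of at least 50, APOC3 was at 0 in all libraries, and the 16 summed to 12.9 to 32.8 CPM, a scale on which each library has the same total. VIM, a mesenchymal filament gene, averaged 31329, and the fibroblast and mesenchymal list summed to 2114 to 2906 CPM. VIM made up 79.3% of that list by mean value, while 4 of its 10 genes averaged under 50, PDGFRA at 7.93, COL1A2 at 13.7, LUM at 5.68 and DCN at 1.97. The erythroid and leukocyte list summed to 2.30 to 5.26 CPM. The hepatocyte markers thus do not bear out the liver label, and the cells are named here by their label only.

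The share of signal held by mitochondrial genes did not separate the groups. Their sum was 7.95%, 8.04% and 7.25% of all signal in the 2-APB libraries, 7.63%, 7.98% and 7.82% in the SKF-96365 libraries, and 7.13%, 6.90% and 8.01% in the control libraries. The groups overlapped in every comparison, and control 3 was the high one of its group. The mean share was 7.81% with SKF-96365 against 7.35% in control (exact two-sided permutation p = 0.4), 7.74% with 2-APB against 7.35% in control (exact p = 0.3), and 7.74% with 2-APB against 7.81% with SKF-96365 (exact p = 0.9). The 3 p-values were 0.6, 0.6 and 0.9 after Benjamini-Hochberg adjustment, and 3 libraries against 3 cannot give less than 0.1. Single control libraries changed the size of the difference from control, but not its direction. For SKF-96365 against control it was 0.46 percentage points, with 0.24 without control 2 and 0.79 without control 3, and for 2-APB against control it was 0.40, with 0.17 and 0.73 without the same libraries. In bulk RNA, fewer mitochondria-rich cells and less mitochondrial RNA per cell cannot be told apart.

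**Figure D1:**
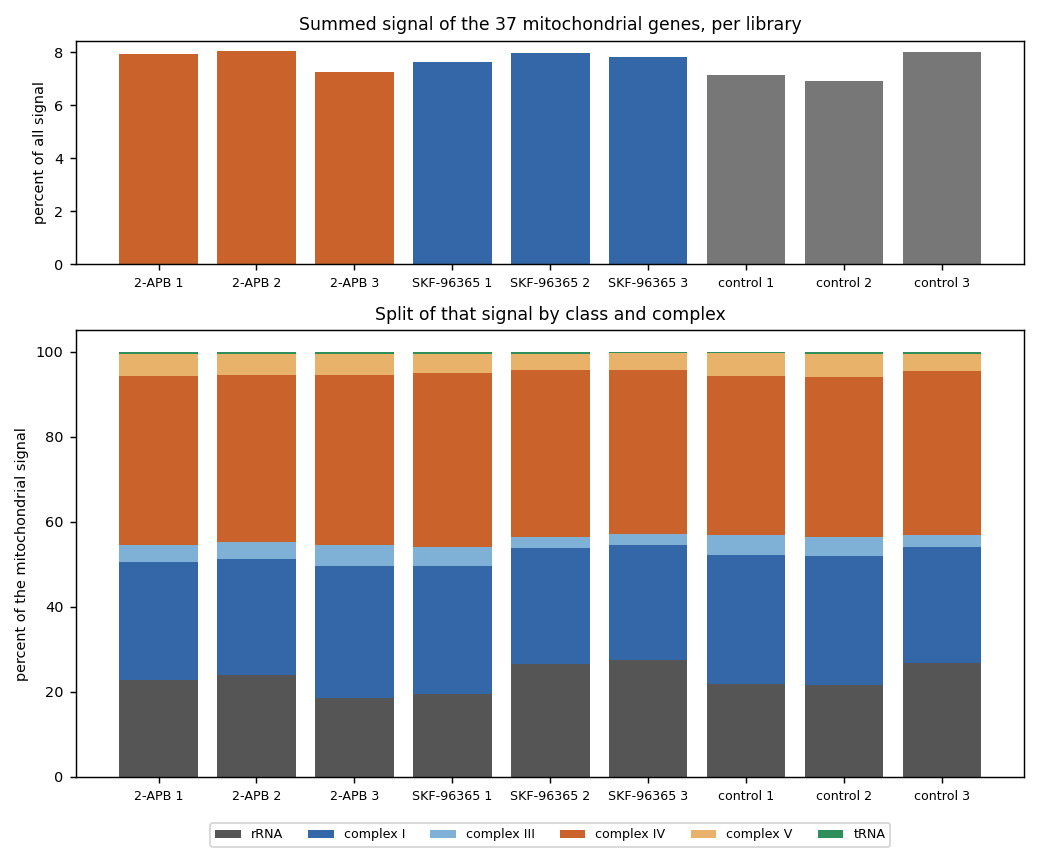
Top, summed signal of the 37 mitochondrial genes as percent of all signal, 1 bar a library; bottom, the split of that signal by class and complex. The sum stays between 6.90% and 8.04%, while the rRNA part is 26.4% to 27.4% in SKF-96365 2, SKF-96365 3 and control 3 and 18.6% to 23.9% in the other libraries.

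By class, complex IV took the largest part of the mitochondrial signal in every library, followed by complex I and the rRNAs in 8 of 9, while in SKF-96365 3 the rRNAs (27.4%) stood just above complex I (27.2%). Complex IV, the oxidase that passes electrons to oxygen, held 39.9%, 39.3% and 40.02% in the 2-APB libraries, 40.7%, 39.2% and 38.4% in the SKF-96365 libraries, and 37.4%, 37.7% and 38.7% in the control libraries. Every 2-APB library lay above every control library (means 39.8% and 37.9%, exact permutation p = 0.1, adjusted p = 0.72 over 18 class comparisons). With the rRNAs left out of the total, the complex IV shares of these groups overlapped (mean difference 1.23 percentage points). Complex V held 5.11%, 5.01% and 4.98% with 2-APB, 4.64%, 3.97% and 3.996% with SKF-96365, and 5.28%, 5.43% and 3.99% in control. Every 2-APB library lay above every SKF-96365 library (means 5.03% and 4.20%, exact permutation p = 0.1, adjusted p = 0.72). These were the 2 of 18 class comparisons without overlap (11.11%), and neither passed the adjusted threshold. The rRNA part was 22.7%, 23.9% and 18.6% with 2-APB, 19.4%, 26.4% and 27.4% with SKF-96365, and 22.0%, 21.7% and 26.7% in control, and it overlapped in all comparisons. Complex III, whose 1 mitochondrial subunit is MT-CYB, held 2.51% to 4.85%, complex I 27.2% to 31.1% and the tRNAs 0.401% to 0.539%. Genes annotated to the light-strand transcript made up 1.57% to 1.90% of the signal, by gene and not by the strand of the reads.

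Levels per kilobase of gene allow for gene length. They do not allow for how well the mRNA libraries captured rRNAs beside mRNAs, which was not tested. MT-CO1, the catalytic core subunit of complex IV, was the highest of all genes by mean count and stood at 176929 to 247416 normalized counts per kilobase over the 9 libraries. MT-RNR2, the large-subunit rRNA, stood at 125231 to 212775 per kilobase and MT-ND4L at 142340 to 197585. MT-CO1 was first in all 9 libraries, whereas MT-RNR2 exceeded MT-ND4L in 5 of them and fell short of it in the others. MT-CO2 (111962 to 147565), MT-CO3 (81043 to 118562), MT-ND4 (73868 to 98340) and MT-ATP6 (74896 to 92985) followed, each overlapping its neighbour. MT-ND1, MT-ND5, MT-ND2 and MT-CYB averaged 49139, 45076, 43108 and 42269 per kilobase. That order of means held in no single library. In SKF-96365 2, SKF-96365 3 and control 3, MT-ND1 (31927 to 35539) lay below MT-ND5 (48006 to 48435). There MT-ND1 also lay below MT-RNR1 and MT-ND6. In each of the other libraries MT-ND5 (41582 to 44669) lay below both MT-ND2 (44458 to 51718) and MT-CYB (44660 to 51181). MT-RNR1, MT-ND6 and MT-ND3 averaged 35904, 33245 and 25060, and MT-ATP8 was the lowest protein gene at 12390. MT-ATP8 and MT-ATP6 lie on the same transcript and are read in overlapping frames, so the difference between them includes how reads in the shared bases were counted.

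**Figure D2:**
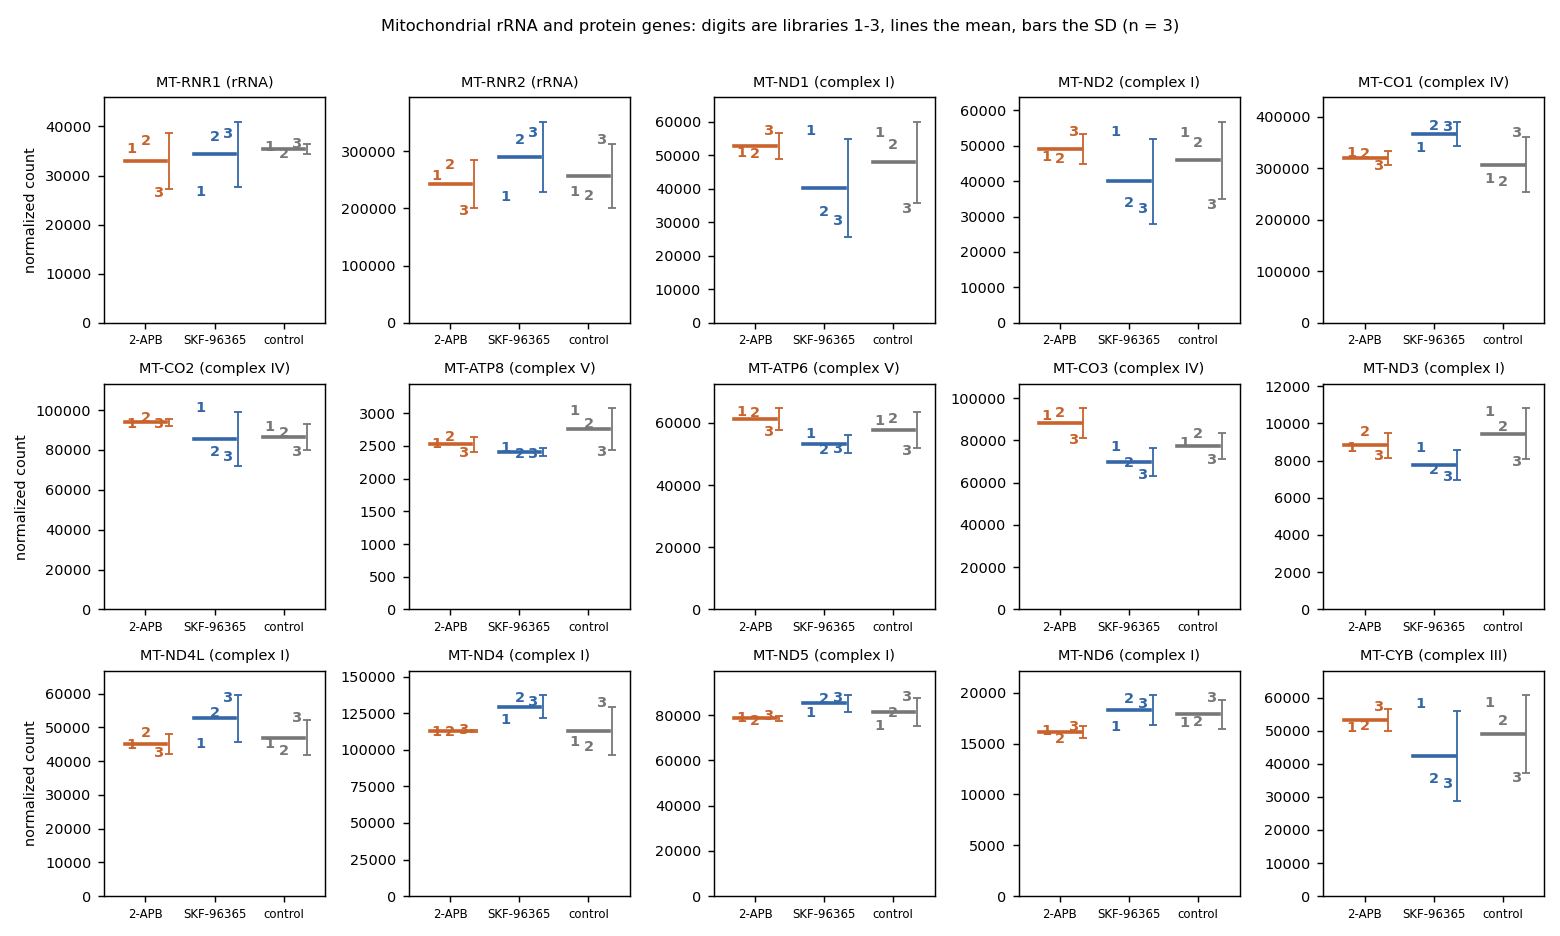
Normalized counts of the 2 rRNA and 13 protein genes; each digit is 1 library, numbered within its group, the line is the group mean and the bar the SD (n = 3). In the MT-ND1 panel SKF-96365 2, SKF-96365 3 and control 3 sit between 30522 and 33976 and the other 6 libraries between 50355 and 57259.

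No mitochondrial gene passed the gene test in any comparison. In limma's test with Benjamini-Hochberg adjustment, 0 of 17492 genes (0%) were called for SKF-96365 against control, for 2-APB against control and for 2-APB against SKF-96365. Of the 37 mitochondrial genes, 34 passed the filter on low values and were tested; MT-TF, MT-TQ and MT-TK did not pass. At an unadjusted p under 0.05, SKF-96365 against control had 2 of the 34 beside 4.00% of all genes tested, 2-APB against control had 2 beside 2.80%, and 2-APB against SKF-96365 had 6 beside 7.30%. MT-TA was 1 of the 2 in both comparisons with control. It passed the filter through the control libraries alone, so its direction there was fixed and it supports nothing. On reads recovered from 8 libraries, edgeR called 0 genes in each comparison, with 258, 367 and 492 at an unadjusted p under 0.05, and DESeq2 called 2, 0 and 1, none of them mitochondrial. The median log2 fold change of the 13 protein genes was -0.11 for SKF-96365 against control, 0.08 for 2-APB against control and 0.15 for 2-APB against SKF-96365, where the medians of all genes tested were -0.0043, -0.0016 and 0.0073. Among the 34 genes tested, 10, 23 and 25 had a log2 fold change above 0 in these comparisons, beside 49.5%, 49.7% and 51.0% of all genes. Both compounds were set against the same control libraries, so the first and second comparisons are not independent.

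**Figure D3:**
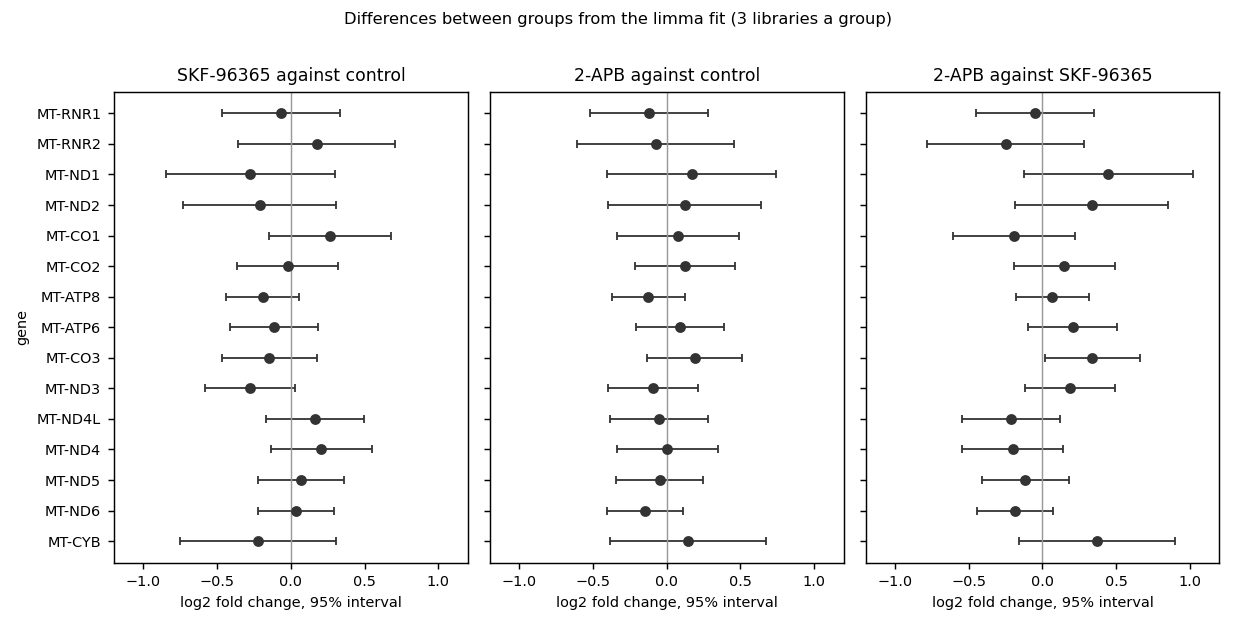
Log2 fold change with its 95% interval from the limma fit for the 2 rRNA and 13 protein genes, in 3 comparisons, genes in order along the genome. A single interval excludes 0 before adjustment, that of MT-CO3 for 2-APB against SKF-96365 (0.34).

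The rRNAs form the core of the mitochondrial ribosome. MT-RNR2 had 257104, 276296 and 195235 normalized counts in the 2-APB libraries, 219493, 319863 and 331716 in the SKF-96365 libraries, and 228770, 221356 and 320351 in the control libraries. The groups overlapped, and its log2 fold change for SKF-96365 against control was 0.17 ± 0.24 (SE; limma, adjusted p = 0.84). It was 0.066 without SKF-96365 3, 0.36 without SKF-96365 1 and 0.53 without both SKF-96365 1 and control 3. MT-RNR1, the small-subunit rRNA, had 35357, 37103 and 26533 with 2-APB, 26561, 37877 and 38442 with SKF-96365, and 35714, 34308 and 36378 in control. The ratio of MT-RNR2 to MT-RNR1 was 7.27, 7.45 and 7.36 with 2-APB, 8.26, 8.44 and 8.63 with SKF-96365, and 6.41, 6.45 and 8.81 in control. The 2-APB ratios lay below all SKF-96365 ratios, while the control libraries spanned both. This was 1 of several ratios computed and is a description with no test.

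Complex I takes electrons from NADH, and its mitochondrial subunits form the membrane arm that pumps protons. MT-ND1 had 50670, 50355 and 57259 with 2-APB, 57194, 33026 and 30522 with SKF-96365, and 56651, 53139 and 33976 in control. MT-ND2 followed it, with 46822, 46326 and 53890 with 2-APB, 53816, 33682 and 32211 with SKF-96365, and 53463, 50772 and 33287 in control. In both genes SKF-96365 2, SKF-96365 3 and control 3 were the low libraries, and the groups overlapped. The log2 fold change for SKF-96365 against control was -0.28 ± 0.26 for MT-ND1 and -0.21 ± 0.23 for MT-ND2 (SE; limma, adjusted p of at least 0.79 for every mitochondrial gene in this comparison). Single libraries moved both values, to -0.11 and -0.08 without SKF-96365 3 and to -0.56 and -0.45 without SKF-96365 1. MT-ND3 had 8680, 9536 and 8235 with 2-APB, 8669, 7484 and 7112 with SKF-96365, and 10585, 9818 and 7920 in control, with a log2 fold change of -0.28 ± 0.14 for SKF-96365 against control.

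The other complex I genes were high, not low, in the same 3 libraries. MT-ND4L had 44888, 48273 and 42275 with 2-APB, 44960, 54288 and 58683 with SKF-96365, and 44948, 42949 and 52781 in control. MT-ND4, the next gene along, had 112387, 112127 and 113405 with 2-APB, 120521, 135513 and 132945 with SKF-96365, and 105264, 101790 and 131919 in control. All 2-APB values of MT-ND4 lay below all SKF-96365 values (log2 fold change -0.20 ± 0.15 SE). MT-ND5 had 78501, 77432 and 79707 with 2-APB, 80744, 86987 and 87685 with SKF-96365, and 75347, 80940 and 87764 in control. MT-ND5 too did not overlap between 2-APB and SKF-96365 (log2 fold change -0.12 ± 0.13 SE). MT-ND6, the 1 protein gene of the light strand, had 16264, 15463 and 16629 with 2-APB, 16680, 19432 and 18930 with SKF-96365, and 17019, 17124 and 19540 in control. Its 2-APB values lay below those of both other groups, by -0.18 ± 0.12 against SKF-96365 and -0.15 ± 0.12 against control on the log2 scale (SE). Heavy-strand precursor RNA runs across the MT-ND6 locus, and the strand setting of the counting is not given in the sources used here, so reads from the 2 strands cannot be told apart. The same limit holds for the tRNA genes of the light strand.

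Complex III moves electrons on to cytochrome c, and MT-CYB is its cytochrome b. MT-CYB had 50956, 51557 and 57155 with 2-APB, 58103, 35306 and 33851 with SKF-96365, and 58398, 53039 and 35695 in control. The split by library was that of MT-ND1, and the groups overlapped (log2 fold change for SKF-96365 against control -0.22 ± 0.24 SE, with -0.08 without control 1 and -0.47 without SKF-96365 1). MT-ND5 was 1.48 ± 0.08 times MT-CYB with 2-APB, 2.15 ± 0.66 times with SKF-96365 and 1.76 ± 0.62 times in control (SD, n = 3), with 2.46 to 2.59 in SKF-96365 2, SKF-96365 3 and control 3 and 1.29 to 1.54 in the other 6.

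Complex IV has 3 mitochondrial subunits, whose genes ranked the libraries differently. MT-CO1 had 329732, 327360 and 304897 with 2-APB, 338706, 381516 and 379216 with SKF-96365, and 280050, 272825 and 368190 in control. All 2-APB values lay below all SKF-96365 values (log2 fold change -0.19 ± 0.19 SE), and for SKF-96365 against control, which overlapped, it was 0.27 ± 0.19. MT-CO2, which receives electrons from cytochrome c, had 92997, 96017 and 92947 with 2-APB, 100935, 79032 and 76582 with SKF-96365, and 91522, 88626 and 78903 in control. It lay higher in every 2-APB library than in every control library (0.12 ± 0.15 SE). MT-CO3 had 91568, 92952 and 80118 with 2-APB, 76647, 69365 and 63538 with SKF-96365, and 78653, 82807 and 70579 in control. Every 2-APB value exceeded every SKF-96365 value. Its log2 fold change was 0.34 ± 0.15 (SE; limma, adjusted p = 0.68). Within complex IV, MT-CO1 was 3.55, 3.41 and 3.28 times MT-CO2 with 2-APB, 3.36, 4.83 and 4.95 times with SKF-96365, and 3.06, 3.08 and 4.67 times in control.

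Complex V makes ATP from the proton gradient, and both of its mitochondrial subunits belong to the proton channel part. MT-ATP6 had 63323, 63087 and 57086 with 2-APB, 56354, 51318 and 51618 with SKF-96365, and 60592, 61247 and 51004 in control. The 2-APB values lay above all SKF-96365 values (log2 fold change 0.20 ± 0.13 SE; limma, adjusted p = 0.71). MT-ATP8 had 2537, 2637 and 2397 with 2-APB, 2476, 2378 and 2376 with SKF-96365, and 3033, 2838 and 2412 in control, and the groups overlapped. MT-ATP6 was 25.0, 23.9 and 23.8 times MT-ATP8 with 2-APB, 22.8, 21.6 and 21.7 times with SKF-96365, and 19.98, 21.6 and 21.1 times in control. Both genes are carried by 1 mRNA that holds the overlap shown above, and all 2-APB ratios lay above all ratios of the other groups, as a description with no test. It was 1 of several ratios computed, and the ratio of MT-CO3 to MT-ATP6 separated in the same way. That ratio was 1.40 to 1.47 with 2-APB and at most 1.38 in the other libraries.

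Counting members whose groups did not overlap, SKF-96365 against control had 1 of the 34 tested (all genes tested, 6.20%), 2-APB against control had 5 (7.57%), and 2-APB against SKF-96365 had 9 (17.0%). The 5 were MT-CO2, MT-TC and MT-TY, higher with 2-APB (all genes, 3.61%), and MT-ND6 and MT-TA, lower with 2-APB (3.97%). The 9 were MT-ATP6, MT-CO3, MT-TN, MT-TH and MT-TS2, higher with 2-APB (all genes, 8.21%), and MT-CO1, MT-ND4, MT-ND5 and MT-ND6, lower with 2-APB (8.79%). The 1 member in SKF-96365 against control was MT-TA, lower with SKF-96365 (all genes, 2.94% lower and 3.26% higher). It averaged under 10 and is named after its values were seen, at 4.38, 6.01 and 7.89 with 2-APB, 8.74, 5.14 and 4.96 with SKF-96365, and 17.9, 15.2 and 11.5 in control. It passed the filter through the 3 control libraries alone and so had to be lower in both other groups, and it supports nothing.

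The tRNA rows were low beside the mRNAs and are read with care, since mature tRNAs are short and folded and mRNA kits capture them poorly. Of 22 tRNAs, 17 had a mean of at least 10 and 5 did not, with single values from 0 to 25.3 in those 5. MT-TP, on the light strand, had 2497, 2363 and 2070 with 2-APB, 2270, 3038 and 3096 with SKF-96365, and 1888, 2214 and 3070 in control. MT-TC had 1577, 1403 and 1814 with 2-APB, 1551, 1286 and 1121 with SKF-96365, and 973, 1235 and 1368 in control. MT-TC was higher in every 2-APB library than in every control library, with a log2 fold change of 0.43 ± 0.17 (SE; limma, adjusted p = 0.9995). MT-TN, from the same light-strand cluster, had 1167, 1183 and 1193 with 2-APB, 1098, 1124 and 984 with SKF-96365, and 733, 998 and 1215 in control. MT-TY, the last named of that cluster, had 171, 158 and 177 with 2-APB, 231, 122 and 96.2 with SKF-96365, and 155, 119 and 145 in control. Its 2-APB libraries lay above all control libraries (0.28 ± 0.28 SE on the log2 scale).

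Among heavy-strand tRNAs, 3 neighbours lie between MT-ND4 and MT-ND5. MT-TH had 310, 252 and 299 with 2-APB, 212, 135 and 96.2 with SKF-96365, and 251, 337 and 115 in control. MT-TS2 had 50.4, 44.7 and 52.3 with 2-APB, 34.9, 24.7 and 19.8 with SKF-96365, and 35.8, 57.8 and 28.2 in control. Neither overlapped between 2-APB and SKF-96365, with log2 fold changes of 1.02 ± 0.38 and 0.90 ± 0.32 (SE; limma, adjusted p = 0.68 for both). MT-TL2 had 49.3, 16.3 and 22.7 with 2-APB, 21.8, 8.22 and 8.93 with SKF-96365, and 19.99, 38.5 and 30.3 in control, a log2 fold change of -1.21 ± 0.49 for SKF-96365 against control (SE; limma, adjusted p = 0.79). MT-TV and MT-TE also had an unadjusted p under 0.05 for 2-APB against SKF-96365, at 1.55 ± 0.55 and 1.09 ± 0.44 on the log2 scale. MT-TL1, MT-TI, MT-TM, MT-TW, MT-TD, MT-TG, MT-TR and MT-TT averaged 10.9 to 186 and overlapped in every comparison. For the 19 tRNAs tested the median log2 fold change was -0.57 for SKF-96365 against control, 0.30 for 2-APB against control and 0.82 for 2-APB against SKF-96365. The medians of all genes tested were -0.0043, -0.0016 and 0.0073. The 19 include MT-TA, whose direction against control was fixed by the filter. Of the 22 tRNAs, 11 had their 3 lowest values in SKF-96365 2, SKF-96365 3 and control 3, and 1 its 3 highest.

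**Figure D4:**
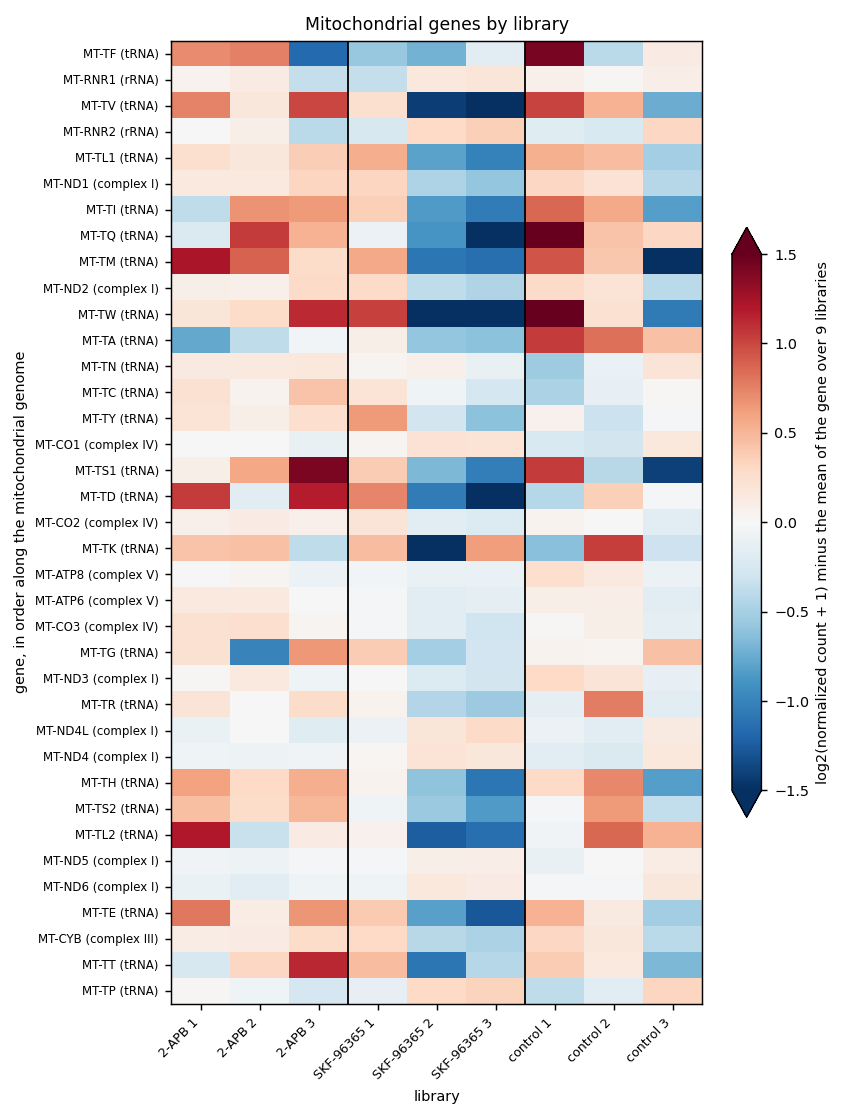
Log2(normalized count + 1) of each of the 37 genes minus its mean over the 9 libraries, 1 row a gene in genome order and 1 column a library; colours end at 1.5 either way. SKF-96365 2, SKF-96365 3 and control 3 share a pattern in which 18 genes have their 3 lowest values and 7 their 3 highest in those libraries.

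The largest pattern among the mitochondrial genes ran by library rather than by group. In SKF-96365 2, SKF-96365 3 and control 3, 18 of the 37 genes had their 3 lowest values and 7 their 3 highest, beside 17.6% and 16.4% of all genes tested. The lowest were MT-ND1, MT-ND2, MT-CYB, MT-CO2, MT-ATP6, MT-CO3, MT-ND3 and 11 tRNAs. The highest were MT-RNR2, MT-CO1, MT-ND4L, MT-ND4, MT-ND5, MT-ND6 and MT-TP, so genes of 1 heavy-strand precursor were found on both sides. MT-RNR2 was 9.69, 10.9 and 9.43 times MT-ND1 in SKF-96365 2, SKF-96365 3 and control 3, and 3.41 to 5.49 times in the other 6 libraries. MT-CO1 was 11.3, 11.8 and 11.1 times MT-ND2 in those 3 libraries and 5.24 to 7.07 times in the other 6. The 3 libraries were singled out after their values were seen, and they are described here one by one, not tested as a group.

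Leaving out control 3 and SKF-96365 1, which stood with libraries of another group, changed the counts of called genes. The library 2-APB 3 also correlated more with SKF-96365 1 and control 1 than with its own group, and it was kept. Control 3 and SKF-96365 1 were picked because their values went against their groups, so the split that follows was largely fixed by that choice. The counts are optimistic, describe that split and support no effect of a compound. With SKF-96365 2 and 3 against control 1 and 2, limma called 4823 genes (27.6% of those tested), 18 of the 34 mitochondrial ones among them, 4 higher and 14 lower with SKF-96365. MT-ND1 (log2 fold change -0.79), MT-CYB (-0.69), MT-ND2 (-0.66) and MT-ND3 (-0.48) were among the lower, and MT-CO1 (0.46) and MT-ND4 (0.37) among the higher. With 2-APB against SKF-96365 2 and 3, limma called 2283 genes (13.1%), 12 mitochondrial genes higher with 2-APB and 1 lower. MT-ND1 at 0.73 and MT-CO3 at 0.41 were among the higher. With 2-APB against control 1 and 2 it called 0 genes, with 2758 at an unadjusted p under 0.05. Leaving out control 3 alone gave 173 calls (0.989%) for SKF-96365 against control and 4 (0.0229%) for 2-APB against SKF-96365, none of them mitochondrial.

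Nuclear genes that serve mitochondrial gene expression were lower at the median in SKF-96365 than in control, without any call. Of the mitochondrial RNA processing list, 29 of 31 tested genes had a log2 fold change below 0 (median -0.24), of the small ribosomal proteins 28 of 30 (-0.09), and of the large ribosomal proteins 43 of 49 (-0.19), where 8840 of 17492 genes tested were below 0. The 28 include MRPS24, at 12.2 to 29.2 in control and 7.67 to 9.86 in the other libraries. It passed the filter through the control libraries alone, so its direction was fixed and it supports nothing. The lists for replication and transcription (13 of 21), biogenesis regulators (8 of 11) and translation factors (8 of 15) had medians of -0.04, -0.18 and -0.03. Of these, the replication and transcription median was 0.04 without control 1 and the translation factor median 0.02 without SKF-96365 3, so neither direction held. Nuclear subunits of complex I were below 0 in 31 of 37, of complex III in 8 of 9, of complex IV in 9 of 11 and of ATP synthase in 15 of 18. The complex IV median was -0.05, and 0.03 without SKF-96365 2. The small ribosomal median was -0.01 without control 1. The RNA processing median was -0.13 without control 1 and -0.36 without control 3, and members of a list are not independent replicates. Without both control 3 and SKF-96365 1 the medians were -0.48 for RNA processing and -0.49 for the large ribosomal proteins, and limma called 86 of the 230 genes on the 10 lists (37.4%), beside the 27.6% of all genes. Those libraries were picked after their values were seen, so these figures are a description only. In the other comparisons 24 of 31 RNA processing genes were below 0 for 2-APB against control (median -0.05). That median was 0.0037 without control 2 and -0.27 without control 3, so its direction did not hold. For 2-APB against SKF-96365 the large ribosomal proteins were above 0 in 41 of 49 (0.19) and complex I subunits in 32 of 37 (0.16).

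In 9 of the 10 lists the 3 lowest libraries were SKF-96365 2, SKF-96365 3 and control 3. The exception was nuclear complex IV, whose median stood at -0.15 in SKF-96365 2, -0.08 in SKF-96365 3, -0.15 in control 2 and 0.0024 in control 3. For the large ribosomal proteins the median deviation from each gene's mean was -0.0039, -0.03 and 0.25 with 2-APB, 0.21, -0.32 and -0.23 with SKF-96365, and 0.26, 0.13 and -0.17 in control, on the log2 scale. For the 13 mitochondrial protein genes it was 0.01, 0.07 and -0.03 with 2-APB, 0.01, -0.15 and -0.15 with SKF-96365, and 0.05, 0.09 and -0.12 in control. Those same libraries were the 3 lowest for the 13 mitochondrial protein genes.

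**Figure D5:**
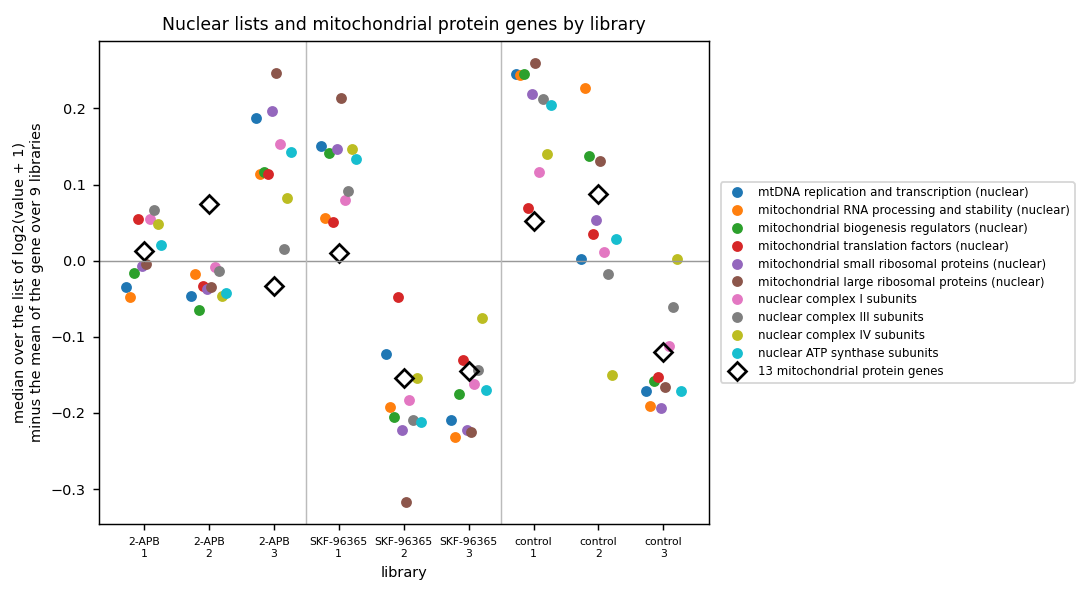
Median over each nuclear list (filled circles) and over the 13 mitochondrial protein genes (open diamonds) of log2(value + 1) minus the mean of the gene over 9 libraries, by library. The diamonds are at -0.15, -0.15 and -0.12 in SKF-96365 2, SKF-96365 3 and control 3 and between -0.03 and 0.09 in the other libraries.

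By gene, the most abundant member of each list was LONP1, LRPPRC, MYC, TUFM, DAP3, MRPL3, NDUFS1, UQCRC2, COX7C or ATP5F1B. LRPPRC, which stabilises mitochondrial mRNAs, had 7723, 7251 and 7440 with 2-APB, 6605, 7129 and 7696 with SKF-96365, and 8216, 8566 and 6529 in control. MYC, a transcription factor with many targets beyond mitochondria, had 1876, 1968 and 1860 with 2-APB, 2090, 4700 and 4693 with SKF-96365, and 2172, 1679 and 4373 in control. MYC was thus high in the same 3 libraries and overlapped between 2-APB and control, while all 2-APB values lay below all SKF-96365 values (log2 fold change -0.92 ± 0.37 SE; limma, adjusted p = 0.68). ATP5F1B, the catalytic beta subunit of ATP synthase, had 13354, 13585 and 12849 with 2-APB, 12684, 10626 and 11246 with SKF-96365, and 12903, 11162 and 10245 in control. The smallest unadjusted limma p of each list ran from 0.0457 (GTPBP3) to 0.175 (UQCR10) for SKF-96365 against control, from 0.0281 (ATP5F1E) to 0.473 (UQCRC2) for 2-APB against control, and from 0.0200 (RRM2B) to 0.248 (UQCR10) for 2-APB against SKF-96365.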

How the data were processed

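The members and gene lists were chosen with earlier results of these data known. Per the labels, RNA was taken with an RNeasy kit, and SMARTer mRNA-Seq libraries were built from it. The deposited values are a normalized signal, gene counts scaled by the authors with DESeq2, per the submitters' processing notes; aligner, build, annotation and strand setting are not given in the sources used here. Symbols were matched by identifier for 60593 of 60605 Ensembl rows (99.98%), with 130 from GENCODE 29; 488 rows had other names. Reference coordinates and sequences are from GENCODE 29 and the files name no build. Within each library 100% of values were whole multiples of the smallest within 0.001, so reads were recovered in 8 libraries; the step of SKF-96365 3 (0.992) is too near 1 for its total to be certain. Count models left that library out.

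A gene was tested if 3 or more libraries reached a value of 10, which left 17492. The test was limma (version 3.58.1, run in R 4.3.3) with its variance trend, on log2(value + 1), with all 9 libraries in the fit, two-sided, called at a Benjamini-Hochberg adjusted p under 0.05. Fold changes are on that scale and understate those of low genes. Shares were compared by exact permutation. The gene test was tested on simulated data. Alternatives included DESeq2 1.42.0 and edgeR 4.0.16 run on those reads, other pseudocounts, filters and scalings, a replicate block and each library left out. The genes named were drawn from all rRNA and protein genes, tRNAs with a mean of at least 10, nuclear copies with a mean of at least 10, and per nuclear list the gene with the highest mean and the smallest p of each comparison. FASTKD4 and TBRG4 name 1 gene, so 31 of 32 listed RNA processing symbols were found.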

Additional observations from a re-analysis of the deposited data

How the results depend on the processing

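Across 25 alternatives the counts of 0 called genes for 2-APB against control did not change. For SKF-96365 against control the count was 0 to 173 with each library left out (173 without control 3), 4823 without both control 3 and SKF-96365 1, and 2 by DESeq2. For 2-APB against SKF-96365 it was 0 to 4 with each library left out (4 without control 3), 4 with only those groups in the fit, 2283 without both libraries and 1 by DESeq2. Calls among the 230 tested genes of the 10 nuclear lists, added over the 3 comparisons, numbered 0 to 1 with each library left out and 123 without both: 86 for SKF-96365 against control (37.4%, beside 27.6% of all genes), 0 for 2-APB against control and 37 for 2-APB against SKF-96365 (16.1%, beside 13.1%). The median of the protein genes for 2-APB against SKF-96365 was 0.073 (without SKF-96365 3) to 0.247 (without SKF-96365 1) with each library left out, 0.25 without both and 0.058 by edgeR; for SKF-96365 against control it was -0.20 without control 3, -0.068 without control 2, -0.025 under quantile normalization and -0.24 without both, and for 2-APB against control it was -0.0029 without control 2. The share difference between 2-APB and SKF-96365 was -0.21 to 0.19 points with each library left out and turned to 0.153 over protein genes alone. Class shares without overlap numbered 2 to 9 with each library left out (9 without SKF-96365 1, 5 without control 3, 4 without 2-APB 2) and 13 without both libraries. Smaller groups separate more easily, so these counts cannot be set beside the 2 from all libraries. Without the rRNAs 1 was left, complex V for 2-APB against SKF-96365, while complex IV for 2-APB against control overlapped. For these changes the cause was not tested, and the setting without both libraries was picked after their values were seen. Quantile normalization sets the top genes equal between libraries and so gave 0 for MT-CO1 and MT-RNR2. The replicate numbers did not pair the libraries: correlations of equal numbers ran from -0.35 to 0.50, and with the replicate block limma called 0 genes in each comparison. Low values kept 3 tRNAs out of the gene test.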
